A study of Mus musculus with 52 samples.

Results

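Immunoglobulin light chain variable (V) genes were followed in bulk RNA-seq of individual mouse tumors. Members were taken from the deposited table by its annotation, as genes of the V gene biotype whose symbol begins with Igkv (kappa) or Iglv (lambda). This gave 97 of 27525 genes, of which 94 are kappa and 3 are lambda. Of these, 57 had at least 1 normalized count in all 32 tumors, and the least detected had it in 7 tumors.

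The tumors grew under the skin of male C57BL/6NHsd mice, 8 to 10 weeks old, from KPC cells (KxPxCx in the labels), pancreatic tumor cells of a mouse with Cre-activated mutant alleles and Pdx1-Cre. Untreated mice received neither agonist, and the ADU-S100 group was given 2 µg of this STING agonist once into the tumor. The anti-LTβR group was given 4 doses of 100 µg of the agonistic antibody 4H8 against the lymphotoxin β receptor, and the combination group was given both. Each of the 4 groups holds 8 tumors taken on day 14, each sequenced on its own, and the host strain and injected cells are common to all of them. Cages or days of RNA extraction were not used here, so p-values measure the spread between these tumors. The paper counts tumors as biological replicates and does not give the number of mice that carried them, so tumors of the same mouse are possible.

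A light chain V exon encodes most of the antigen-binding part of the kappa or lambda chain. In a developing B cell a V gene is joined to a J segment and transcribed with a constant gene, Igkc or an Iglc gene, and as a rule the progeny of that B cell keep the same light chain. Plasma cells, which secrete antibody, transcribe the joined gene at very high levels. In mice most light chains are kappa, and the lambda locus holds few V genes.

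Germline sequences came from GENCODE transcripts of GRCm38, in which all 97 members were found, each with 2 exons and a V exon of 294 to 324 bases. For 43 members another member was at least 95% identical over the V exon, and these held 63.3% of the light chain V count on average. The closest pair, Igkv5-43 and Igkv5-45, shared 295 of 298 bases. How reads that match several V genes were assigned is not given in the sources used here, so the division of counts within such pairs is uncertain. The last 300 bases of the V exon of the most used lambda gene, Iglv1 (chr16:19085017-19085316, minus strand), are shown beside those of Iglv2 (chr16:19260401-19260700, minus strand), since the lambda results turn on these genes. Their whole exons matched at 296 of 305 bases, and capitals mark the 8 differences within the stretch shown, written 5′ to 3′ on the gene's strand.
Iglv1: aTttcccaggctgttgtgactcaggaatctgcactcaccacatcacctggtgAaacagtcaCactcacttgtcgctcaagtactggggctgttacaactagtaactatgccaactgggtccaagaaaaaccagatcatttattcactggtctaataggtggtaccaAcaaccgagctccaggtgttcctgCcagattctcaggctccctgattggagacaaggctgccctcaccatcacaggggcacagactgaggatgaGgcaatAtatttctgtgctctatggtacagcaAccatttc
Iglv2: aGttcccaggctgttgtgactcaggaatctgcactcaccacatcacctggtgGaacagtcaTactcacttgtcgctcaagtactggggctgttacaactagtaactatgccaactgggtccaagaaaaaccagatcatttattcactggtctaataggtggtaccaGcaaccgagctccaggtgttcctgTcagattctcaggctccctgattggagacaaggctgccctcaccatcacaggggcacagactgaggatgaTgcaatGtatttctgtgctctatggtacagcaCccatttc

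The most used kappa genes, Igkv1-110 (chr6:68270968-68271267, plus strand) and Igkv1-117 (chr6:68121528-68121827, plus strand), form a pair of the same kind, with 303 of 313 exon bases identical. They are shown because Igkv1-110 passed the test between combination and untreated tumors and Igkv1-117 did not. Capitals mark the 10 bases that differ.
Igkv1-110: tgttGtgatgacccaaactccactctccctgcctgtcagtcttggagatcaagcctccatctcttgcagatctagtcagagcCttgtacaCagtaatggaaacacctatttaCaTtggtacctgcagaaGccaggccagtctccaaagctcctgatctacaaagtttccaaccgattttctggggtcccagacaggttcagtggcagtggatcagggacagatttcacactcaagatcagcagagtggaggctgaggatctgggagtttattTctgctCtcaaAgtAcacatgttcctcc
Igkv1-117: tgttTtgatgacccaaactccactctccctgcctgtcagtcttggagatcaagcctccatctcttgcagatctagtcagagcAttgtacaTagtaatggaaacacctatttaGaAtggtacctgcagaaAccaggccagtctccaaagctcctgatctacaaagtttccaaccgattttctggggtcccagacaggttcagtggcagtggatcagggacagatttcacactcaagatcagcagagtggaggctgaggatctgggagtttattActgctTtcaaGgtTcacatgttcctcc

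The germline 3′ end of the V exon begins the third complementarity-determining region and is the part that joining to J can trim. The last 60 bases are given for the members that led the comparisons below, Igkv9-124 (chr6:67942074-67942133, minus strand), Igkv6-23 (chr6:70260409-70260468, minus strand), Igkv6-17 (chr6:70371934-70371993, plus strand), Igkv4-53 (chr6:69648824-69648883, minus strand) and Igkv5-43 (chr6:69823355-69823414, minus strand). Capitals run from the conserved cysteine codon (TGT or TGC, in frame, 2 codons after a tyrosine codon TAT or TAC) to the end of the exon. Such a codon was found in 96 of 97 members, all except Igkv4-78.
Igkv9-124: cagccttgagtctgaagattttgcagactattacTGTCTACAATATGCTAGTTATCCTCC
Igkv6-23: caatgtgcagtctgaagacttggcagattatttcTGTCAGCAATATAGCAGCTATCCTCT
Igkv6-17: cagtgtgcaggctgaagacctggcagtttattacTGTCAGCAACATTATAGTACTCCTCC
Igkv4-53: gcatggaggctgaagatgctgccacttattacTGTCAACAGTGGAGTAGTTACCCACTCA
Igkv5-43: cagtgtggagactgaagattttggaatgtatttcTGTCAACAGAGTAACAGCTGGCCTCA

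Values are normalized counts as deposited, and the reads recovered per tumor numbered 12762453 to 15591986. The summed level of 5 skeletal muscle genes ran from 5104 to 324487 over the tumors and that of 5 skin keratinocyte genes from 1147 to 55016. None of these muscle and skin genes was called between combination and untreated tumors. The summed level of 5 tumor epithelium genes, keratins and an adhesion gene, was 15439 to 28845 in untreated and 6756 to 14124 in combination tumors, without overlap, and 2 of them were called lower. Keratins made up nearly all of that sum, and the adhesion gene Epcam had medians of 65.2 and 75.2 and did not pass (0.56, adjusted p = 0.309, limma). The 5 T cell markers had median sums of 564 and 1106, with overlap, and 1 was called higher. The part of any of these cells in the V gene results was not tested.

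Summed over the 97 genes, light chain V counts were highest in tumors given anti-LTβR, alone or combined. Untreated tumors had 2114 normalized counts at the lowest, 6984 at the median and 19109 at the highest. The ADU-S100 group had 1309, 5329 and 7135, the anti-LTβR group 4771, 17902 and 54418 and the combination group 9493, 24935 and 68765. All 8 combination tumors exceeded the ADU-S100 maximum, whereas 4 of them and 4 of the anti-LTβR tumors exceeded the untreated maximum. The combination mean of 28728 ± 19070.2 (SD, n = 8) was 3.52 times the untreated mean of 8166 ± 6010.0. The anti-LTβR mean (21888 ± 16959.8) was 2.68 times, and the ADU-S100 mean (4844 ± 1797) 0.593 times, the untreated mean. Combination and anti-LTβR tumors overlapped over most of their range, with a ratio of means of 1.31. No test was made on a sum over these members. In bulk tissue fewer cells of a type and less RNA per cell cannot be told apart.

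**Figure D1:**
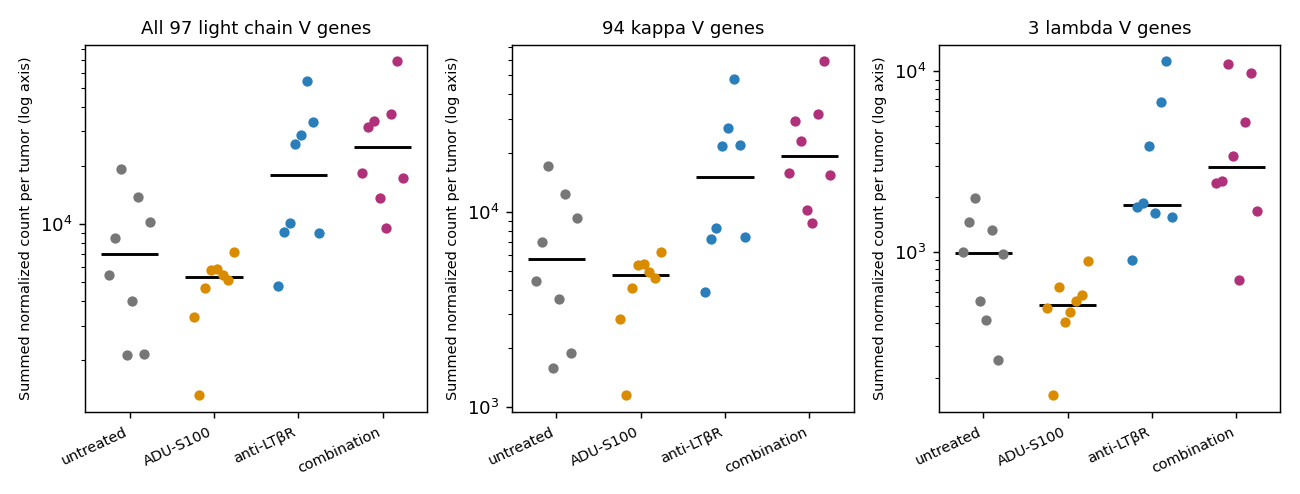
Summed normalized counts per tumor (log axis) of the 97 light chain V genes, the 94 kappa genes and the 3 lambda genes. Each point is 1 of 8 tumors per group and each bar the group median, and for all genes the combination points (from 9493) lie above the ADU-S100 points (up to 7135).

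Kappa and lambda sums ran in the same order of medians. Kappa medians were 5752 (untreated), 4775 (ADU-S100), 15034 (anti-LTβR) and 19428 (combination). Lambda medians were 987 (untreated), 508 (ADU-S100), 1817 (anti-LTβR) and 2937 (combination), and the untreated maximum was exceeded by 6 of the 8 combination tumors. The lambda share of the light chain V count had medians of 11.1 (untreated), 11.6 (ADU-S100), 17.9 (anti-LTβR) and 13.7 (combination) percent. These shares overlapped between all groups, with the highest values in anti-LTβR tumor 7 (33.97%) and combination tumor 3 (32.4%).

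The constant genes, read from the same transcripts, do not depend on how reads were divided among V genes. How reads were divided among the Iglc genes themselves was not examined. Igkc, the single kappa constant gene, had medians of 7629.8 (untreated), 6799.6 (ADU-S100), 22961 (anti-LTβR) and 32036 (combination), and the kappa V sum came to 0.564 to 0.856 of the Igkc count over the tumors. Igkc was higher by 2.08 (standard error 0.46, adjusted p = 0.00178) in log2 with the combination than without treatment (limma), with 5 of 8 tumors beyond the untreated maximum. Of the lambda constant genes, Iglc1 (2.25, adjusted p = 0.00652) and Iglc2 (1.97, adjusted p = 0.00111) were also higher by limma, and Iglc3 (1.09, adjusted p = 0.0925) did not pass. With anti-LTβR alone Iglc1 (1.54, adjusted p = 0.0488), Iglc2 (2.22, adjusted p = 0.00890) and Iglc3 (2.04, adjusted p = 0.0397) were higher, and Igkc (1.39, adjusted p = 0.0718) did not pass. Iglc4, the other gene of this list of 5, was not analysed here.

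Some markers of the cells that make light chains were higher with the combination, and others did not pass. Of 9 plasma cell markers, 8 were tested between combination and untreated tumors and 4 were called higher, namely Jchain, which links antibody polymers, Mzb1, a secretory pathway chaperone, Irf4 and Derl3. Of 10 B cell markers, 8 were tested and 5 were called higher, among them Blk, Cd22, Cd79a and Cd79b. The B cell markers summed to 157 to 444 in untreated and 382 to 1194 in combination tumors. The plasma cell markers summed to 21426 to 30592 and 19732 to 38877, which overlapped, with Sdc1 the most abundant of them at the median in every group. Sdc1, a surface proteoglycan also made by epithelial cells, ranged from 11718 to 23167 over all tumors, and its rank correlation with the V sum was -0.429 (Spearman, 32 tumors). The part of B and plasma cell numbers in the V gene results was not tested.

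Apart from immunoglobulin genes, the levels most like the V sum over the 32 tumors were, of 16852 genes ranked, those of Jchain (Spearman 0.977), Mzb1 (0.975), Pou2af1 (0.961), Bhlha15 (0.938) and ENSMUSG00000120754 (0.931), which has no symbol in the table. Within the 8 tumors of a group the Jchain coefficient was 0.881 to 0.976, whereas in ADU-S100 tumors that of Bhlha15 was 0.357 and that of ENSMUSG00000120754 0.524. These describe tumors that share treatment groups and a normalization. Pou2af1 encodes a B cell coactivator of the octamer factors, which act at V gene promoters. By limma it was higher with the combination (1.85, adjusted p = 0.00200), whereas the octamer factors Pou2f1 (-0.13, adjusted p = 0.369) and Pou2f2 (0.41, adjusted p = 0.0680) did not pass. Genes of V(D)J recombination were low, with maxima over all tumors of 26.0 for Rag1, 3.85 for Rag2 and 19.3 for Dntt. Ung, which acts in hypermutation, was tested and did not pass (0.30, adjusted p = 0.0661). Of the surrogate light chain genes, which pair with the heavy chain before a light chain exists, Vpreb1 (13.5 at most), Vpreb3 (30.0) and Igll1 (10.6) were too low to be tested. Vpreb2, the other gene of that list, was not analysed here.

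Each V gene was tested with limma on log2(normalized count + 1), and called at a Benjamini-Hochberg adjusted p under 0.05 and a change of at least 2-fold. Between combination and untreated tumors 71 of the 97 members passed the filter on low counts, 23 were called higher and 0 lower, 48 were tested and not called, and 26 were not tested. Over all 16909 genes tested, 6.12% were called, 5.16% higher and 0.952% lower. The median log2 difference of the tested members was 1.56, against -0.02 over all genes, with 67 positive. A low gene can pass the filter through its higher group alone, so the tested members are not a neutral sample, here and below. Of all 97 members, tested or not, 83 had the higher mean count with the combination. The members not tested averaged at most 26.3 normalized counts and held 1.203% of the V count of these tumors. For none of the 97 were the groups free of overlap, as they were for 6.69% of all genes. Called members came from many subgroups, with 4 of 6 tested Igkv8, 3 of 8 Igkv6, 2 of 4 Igkv5, 3 of 16 Igkv4 and 2 of 3 lambda genes. Of those called, 12 have another member at 95% identity or more.

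Igkv9-124 (ENSMUSG00000096632, chr6:67942074-67942540, minus strand) had the smallest adjusted p. Its lowest, median and highest counts were 4.01, 15.8 and 113 in untreated and 1.98, 17.9 and 83.8 in ADU-S100 tumors. They were 10.5, 81.3 and 1569 with anti-LTβR and 30.7, 327 and 1078 with the combination. The untreated maximum was exceeded by 6 of 8 combination and 2 of 8 anti-LTβR tumors, and anti-LTβR tumor 3 held the highest count. In log2 the combination differed from untreated tumors by 3.77 (standard error 0.69, adjusted p = 0.000448). With anti-LTβR alone Igkv9-124 did not pass (2.45, adjusted p = 0.0516), although 5 of 24 alternatives called it. Its log2 difference there was 3.32, adjusted p = 0.0302 by edgeR and 1.61, adjusted p = 0.0724 by DESeq2.

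Igkv6-23 and Igkv6-17, 91.9% identical and of the same subgroup, came next. Each has a closer relative, Igkv6-13 for Igkv6-23 (96.0% identical) and Igkv6-25 for Igkv6-17 (95.6%), so the division of counts is uncertain for both. Igkv6-23 (ENSMUSG00000095630) had 44.2, 99.98 and 336 counts (lowest, median, highest) in untreated and 253, 734 and 4222 in combination tumors, against 53.6, 203 and 856 with anti-LTβR alone. Of its combination values, 7 of 8 were beyond the untreated maximum. Igkv6-17 (ENSMUSG00000095794) had 17.1, 45.5 and 263 in untreated and 177, 348 and 2967 in combination tumors, with tumor 7 far above the others, which reached 488. The log2 differences were 2.82 (standard error 0.56, adjusted p = 0.000820) for Igkv6-23 and 2.95 (standard error 0.59, adjusted p = 0.000872) for Igkv6-17, the latter 1.99 by DESeq2.

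Igkv1-110 (ENSMUSG00000093861) had 61.3, 280.2 and 1038 counts (lowest, median, highest) in untreated and 52.9, 217 and 407 in ADU-S100 tumors. It had 232, 1241 and 1984 with anti-LTβR and 431, 1653 and 4953 with the combination. The combination tumors all lay above the ADU-S100 tumors, and 6 of 8 above the untreated maximum, at a log2 difference of 2.84 (standard error 0.66, adjusted p = 0.00254). Its close relative Igkv1-117 (ENSMUSG00000094335) had 116, 406 and 951 in untreated and 172, 1134 and 2310.3 in combination tumors. Igkv1-117 did not pass (1.25, adjusted p = 0.0853), although 5 of 24 alternatives called it. Whether the paired genes differ in response was not tested.

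Among the lambda genes, Iglv1 (ENSMUSG00000076934, chr16:19085017-19085500, minus strand) had 218, 845 and 1727 counts (lowest, median, highest) in untreated and 117, 432 and 737 in ADU-S100 tumors. It had 577, 1493 and 9125 with anti-LTβR and 544, 2459 and 10622 with the combination, and 6 of 8 combination tumors passed the untreated maximum. Its log2 difference was 2.01 (standard error 0.57, adjusted p = 0.00960) with the combination, and with anti-LTβR alone it did not pass (1.57, adjusted p = 0.0548), although 5 of 24 alternatives called it, edgeR and DESeq2 among them. Iglv2 (ENSMUSG00000076940, chr16:19260401-19260859, minus strand) had 11.2, 106 and 270.1 in untreated tumors, 151, 390.5 and 2146 with anti-LTβR and 103, 347 and 559 with the combination. Iglv2 was called with the combination (1.97, adjusted p = 0.0158) and with anti-LTβR alone (2.55, adjusted p = 0.0184). In both treated groups 6 of 8 tumors exceeded the untreated maximum. Iglv3 (ENSMUSG00000076939, chr16:19241207-19241690, minus strand) stayed between 0.645 and 291 counts and was called in neither comparison (0.64, adjusted p = 0.356 with the combination).

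Of the other most used genes, Igkv5-43 (2.90, adjusted p = 0.0117), Igkv19-93 (1.29, adjusted p = 0.0269) and Igkv12-46 (2.05, adjusted p = 0.0485) were called higher with the combination. Igkv5-43 was 3.56 by edgeR and 3.56 by DESeq2. Igkv12-46 lost the call in 13 of 24 alternatives (adjusted p 0.0134 to 0.118) and Igkv19-93 in 3 of 24 (adjusted p 0.0111 to 0.0545). Igkv10-96 (1.42, adjusted p = 0.0985), Igkv1-135 (1.66, adjusted p = 0.0585), Igkv14-111 (0.96, adjusted p = 0.236), Igkv17-127 (1.19, adjusted p = 0.257) and Igkv4-59 (0.73, adjusted p = 0.464) did not pass, although 7 of 24 alternatives called Igkv1-135 (adjusted p 0.0194 to 0.112). Igkv4-59 was highest in untreated tumor 3, at 2189.6 counts, and its difference was 0.13 by edgeR. Igkv4-57 was called at 2.68 (standard error 0.72, adjusted p = 0.00652), and 4 of 8 combination tumors exceeded its untreated maximum. It is 89.3% identical to Igkv4-53 and 94.4% to its closest relative, Igkv4-55.

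**Figure D2:**
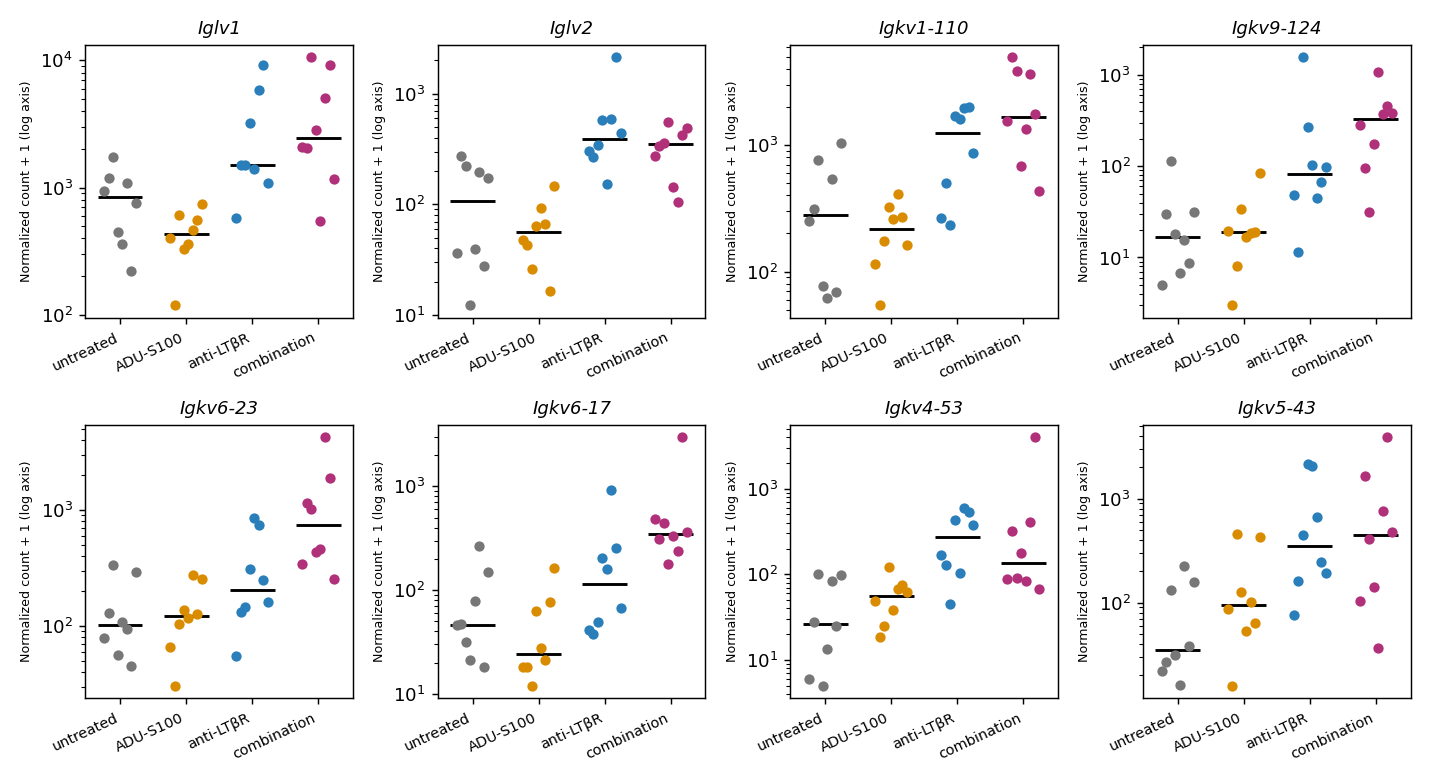
Normalized count plus 1 (log axis) of 8 V genes, with 1 point per tumor in 4 groups and a bar at the group median. The median of Igkv9-124 is 15.8 counts in untreated and 327 in combination tumors before 1 is added, and in every panel these groups overlap.

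With anti-LTβR alone, 8 of 70 tested members were called against untreated tumors, all higher, and 27 members were not tested. Over all 16691 genes tested, 1.04% were called, 0.653% higher and 0.383% lower. The median log2 difference of the tested members was 1.26 (range 0.01 to 3.06), against 0.00300 over all genes. Tested or not, 81 of the 97 members had the higher mean with anti-LTβR and 16 the lower. The count of calls depended on the tumors included. It was 14 without untreated tumor 3, which had the highest V sum of its group. It was 4 without untreated tumor 4 or without anti-LTβR tumor 4, 6 or 7, and 5 without untreated tumor 1, 2 or 7 or anti-LTβR tumor 5. By DESeq2 it was 20 (1.57% of all genes), in a limma fit of all groups 14 (1.38%) and with replicate blocks 5 (0.809%).

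Igkv4-53 (ENSMUSG00000095753, chr6:69648824-69649363, minus strand) had the smallest adjusted p with anti-LTβR. Its counts (lowest, median, highest) were 4.02, 25.3 and 99.9 in untreated and 17.8, 54.4 and 121 in ADU-S100 tumors. They were 44.3, 272 and 593 with anti-LTβR and 66.3, 133 and 3968 with the combination. Of the anti-LTβR tumors 7 of 8 exceeded the untreated maximum, and combination tumor 7 stood far above the other combination tumors, which reached 403. The log2 difference from untreated tumors was 3.06 (standard error 0.71, adjusted p = 0.0114) with anti-LTβR and 3.01 (standard error 0.85, adjusted p = 0.00900) with the combination. The latter was 3.90 by edgeR, 1.91 by DESeq2 and 2.41 without combination tumor 7. Igkv5-43 (ENSMUSG00000094433, chr6:69823355-69823943, minus strand) had 15.2, 33.9 and 224 in untreated and 74.4, 345 and 2163 in anti-LTβR tumors, a log2 difference of 2.97 (standard error 0.73, adjusted p = 0.0153), with the division of counts from Igkv5-45 uncertain.

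Igkv5-48 (1.93, adjusted p = 0.0250) and Igkv6-32 (2.50, adjusted p = 0.0368) were also called with anti-LTβR, and lost the call in 2 of 24 and 10 of 24 alternatives. By DESeq2 the difference of Igkv6-32 was 1.40, adjusted p = 0.0875. With the combination Igkv6-32 was called (2.46, adjusted p = 0.00810), and Igkv5-48 (2.21, adjusted p = 0.0482) lost its call in 15 of 24 alternatives but was 3.15 by edgeR and 3.16 by DESeq2. The other members called with anti-LTβR, named because they complete the count, were Igkv8-28 (2.24, adjusted p = 0.0379), Igkv8-19 (2.54, adjusted p = 0.0383) and Igkv8-16 (2.86, adjusted p = 0.0432). Igkv8-28 and Igkv8-19 are 97.8% identical. Igkv8-16 had 0.0820, 1.94 and 49.9 counts (lowest, median, highest) in untreated, 9.59, 39.5 and 247 in anti-LTβR and 4.92, 9.05 and 49.1 in combination tumors, of which 6 of 8 lay below every anti-LTβR tumor. Its difference between those treated groups did not pass (-1.65, adjusted p = 0.0591), but was called lower by edgeR, by DESeq2 and with the replicate block.

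With ADU-S100 alone no member was called. Of the 97, 60 were tested against untreated tumors, 37 were not, and limma, edgeR and DESeq2 each called 0, as limma did over all 16613 genes (0.0%). At an unadjusted p under 0.05 there were 4 members and 2408 genes in all. The median log2 difference of the tested members was -0.32, against -0.00356 over all genes, with 20 positive, and the smallest adjusted p was 0.293. Tested or not, 24 of the 97 members had the higher mean with ADU-S100 and 73 the lower. Iglv1 differed by -0.80 (standard error 0.42, adjusted p = 0.363) and Igkv1-110 by -0.34 (standard error 0.60, adjusted p = 0.798).

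Against ADU-S100 tumors, 40 of 64 tested members were higher with the combination and 0 lower, and 33 were not tested. Over all 16811 genes 6.17% were called, 5.46% higher and 0.714% lower. Tested or not, 86 of the 97 members had the higher mean with the combination and 11 the lower. The median log2 difference was 1.99 over the tested members and -0.02 over all genes. The largest was that of Igkv2-137, 3.87 (standard error 0.57, adjusted p = 6.78e-05). The groups did not overlap for 4 of 97 members, against 7.41% of all genes. They were Igkv2-137 (8.89 to 49.1 against 93.2 to 2678 counts), Igkv8-24 (4.93 to 34.7 against 44.9 to 709), Igkv1-110 and Igkv6-17. Igkv8-24 is named because its values were singled out after they were seen.

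Between combination and anti-LTβR tumors 71 members were tested, 26 were not, and 2 were called, both higher, while 2.11% of 16932 genes were called, 1.96% higher and 0.148% lower. Igkv6-23 was higher by 1.78 (standard error 0.62, adjusted p = 0.0439) and Igkv6-17 by 1.84 (standard error 0.66, adjusted p = 0.0489) in log2, close to the threshold and with the same uncertain division of counts. Tested or not, 57 of the 97 members had the higher mean with the combination and 40 the lower. The median log2 difference over the tested members was 0.28, against -0.03 over all genes, with 43 positive. Leaving out any tumor other than anti-LTβR tumor 6 or combination tumor 4 lowered the count to 1 or 0. Without anti-LTβR tumor 1, 3 or 8 or combination tumor 5 neither Igkv6 gene was called, and the 1 member called was Igkv8-16, which was lower. Over the 16 such fits Igkv6-23 was called in 5 and Igkv6-17 in 3. DESeq2 called 5 members higher and 2 lower (3.08% of all genes), edgeR 1 higher and 2 lower (2.78%), the replicate block 3 higher and 2 lower (2.18%) and limma without the filter 1, which was lower (1.88%).

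The interaction compares the effect of ADU-S100 with and without anti-LTβR over the 32 tumors. It was tested in 76 members, not in 21, and called in 1 at an adjusted p under 0.05, against 18.4% of all 17649 genes. That member was Igkv2-137 (ENSMUSG00000076501, chr6:67555497-67556216, plus strand), the kappa V gene farthest from Igkc. Its counts (lowest, median, highest) were 13.03, 65.2 and 435 in untreated and 8.89, 23.4 and 49.1 in ADU-S100 tumors. They were 43.9, 137 and 600.3 with anti-LTβR and 93.2, 314 and 2678 with the combination. The ADU-S100 tumors were low and all lay below the combination tumors, and the interaction was 2.77 (standard error 0.86, adjusted p = 0.0236) in log2. It was called in all 32 fits that each left out 1 tumor (adjusted p 0.0111 to 0.0439). Igkv6-17 was next and did not pass (2.52, adjusted p = 0.0553). The median over the tested members was 0.66, against -0.01 over all genes. DESeq2 called 8 positive and 1 negative interactions among the members (20.3% of all genes), and edgeR 3 and 1 (17.6%). In limma 1 positive and 1 negative were called without the filter (10.3%). Called were 2 positive ones with a pseudocount of 0.1 (18.2%) and 2 with the block (18.7%).

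V gene use within a tumor was described by each gene's share of the tumor's light chain V count. Iglv1 held 12.2% on average over the 32 tumors, followed by Igkv1-110 (5.77%), Igkv1-117 (5.71%), Igkv10-96 (4.57%) and Igkv4-59 (2.89%). The 12 most used genes together held 48.5% and the 50 least used 10.4%. Per exonic length Iglv1 held 11.8% and Igkv1-110 5.42%, and the same 12 genes were the most used. Of the 97 members 22 stayed under 1% in every tumor, and 35 exceeded 5% somewhere, 14 of them in 1 tumor only. The 26 Igkv4 genes held 16.6% ± 6.44 (untreated), 18.9% ± 5.54 (ADU-S100), 14.6% ± 2.78 (anti-LTβR) and 13.2% ± 6.53 (combination), as mean ± SD of 8 tumors each. The 8 Igkv6 genes held 8.27% ± 3.37 (untreated), 9.66% ± 3.45 (ADU-S100), 7.09% ± 2.60 (anti-LTβR) and 11.4% ± 2.97 (combination), and the groups overlapped in both.

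**Figure D3:**
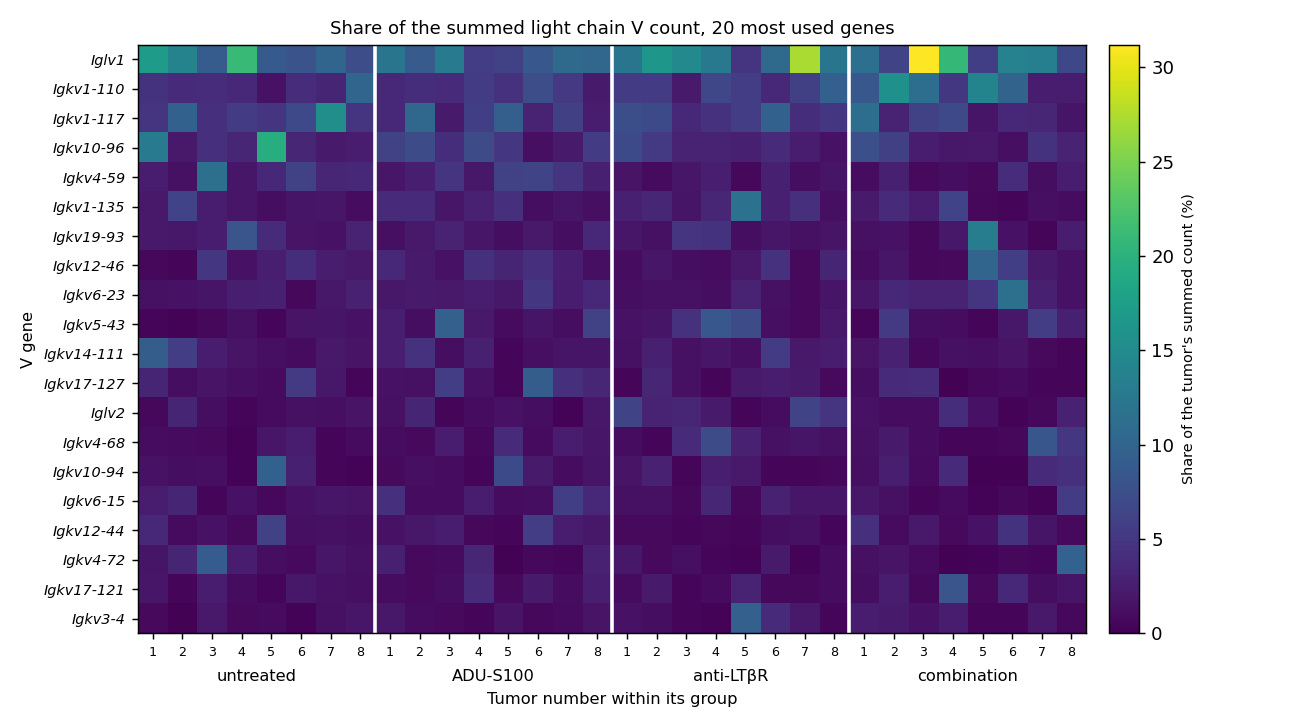
Share (%) of each tumor's summed light chain V count held by the 20 most used V genes (rows) in 32 tumors (columns, by group). Iglv1 fills the brightest row, up to 31.2% in combination tumor 3, and most other genes are bright in few tumors.

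The most used gene differed from tumor to tumor. Iglv1 led in 19 of 32 tumors, of which 4 were untreated, 4 had ADU-S100 alone, 6 anti-LTβR alone and 5 both, and 9 genes took the lead somewhere. Igkv1-110 led in untreated tumor 8 and combination tumors 2 and 5, and Igkv1-117 in untreated tumor 7 and ADU-S100 tumors 2 and 5. Igkv10-96 led in untreated tumor 5, at 19.4% with its relative Igkv10-94 next at 9.72%, and in ADU-S100 tumor 4 (7.07%). Each of the others led in 1 tumor, namely Igkv4-59 in untreated tumor 3 (11.5%), Igkv17-127 in ADU-S100 tumor 6 (9.21%), Igkv9-124 in anti-LTβR tumor 3 (15.53%), Igkv1-135 in anti-LTβR tumor 5 (11.7%) and Igkv4-72 in combination tumor 8 (9.75%). Per length the leading gene was the same in 29 tumors.

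Iglv1 was the only member over 25% in any tumor, at 31.2% in combination tumor 3 and 27.3% in anti-LTβR tumor 7. Combination tumor 3 had 10622 counts of Iglv1 and 362 of Iglv2, beside 5670.2 of Iglc1, 309 of Iglc2 and 249 of Iglc3. Anti-LTβR tumor 7 had 9125 of Iglv1 and 2146 of Iglv2, beside 2870.4 of Iglc1, 1336 of Iglc2 and 1626 of Iglc3. High Iglv1 stood beside high Iglc1 in both, while high Iglv2, Iglc2 and Iglc3 were seen in the anti-LTβR tumor. In mice Iglv2 mostly joins the J segment of Iglc2, and Iglv1 those of Iglc1 and Iglc3. Over the 32 tumors the rank correlation of Iglv1 was 0.978 with Iglc1, 0.799 with Iglc3 and 0.781 with Iglc2. That of Iglv2 was 0.875 with Iglc2, 0.761 with Iglc3 and 0.729 with Iglc1, as descriptions of genes measured in the same libraries. The ratio of Iglv1 to Iglv2 ran from 1.89 to 49.2, with medians of 7.95 (untreated), 6.14 (ADU-S100), 4.95 (anti-LTβR) and 6.91 (combination).

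Dominance was summarised by the share of the leading gene and by the effective number of genes, the inverse of the summed squared shares, which is low when few genes hold most of the count. The leading share ran over 7.94 to 21.0% (untreated), 7.07 to 12.9% (ADU-S100), 10.8 to 27.3% (anti-LTβR) and 9.75 to 31.2% (combination). The effective number had medians of 18.01 (untreated), 24.4 (ADU-S100), 21.7 (anti-LTβR) and 17.8 (combination). ADU-S100 tumors had the highest median (22.2 to 33.0), and 7 of 8 combination tumors (8.16 to 24.9) fell below all of them. Untreated tumors, at 14.4 to 29.0, overlapped each treated group. The genes needed to reach 80% of the count ran from 14 to 32 over the 32 tumors. No test was made on these scores.

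**Figure D4:**
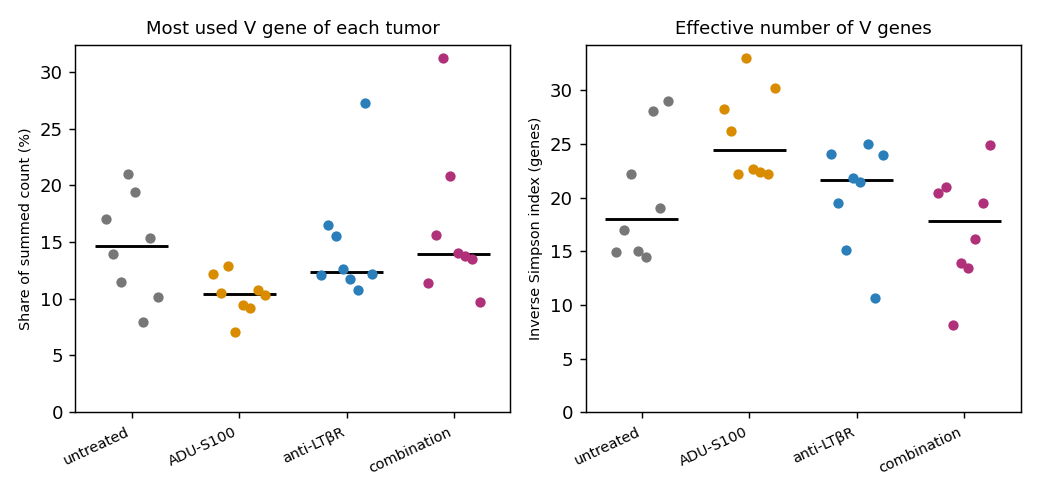
Share (%) of the most used light chain V gene of each tumor (left) and effective number of V genes (right, inverse Simpson index in genes). Points are 8 tumors per group and bars are medians, and the ADU-S100 effective numbers lie between 22.2 and 33.0.

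The use shared by a pair of tumors, the sum over genes of the smaller share, had a median of 58.3% within the untreated, 61.2% within the ADU-S100, 62.7% within the anti-LTβR and 52.9% within the combination group. Between untreated and combination tumors it was 53.2%. Pairs of combination tumors shared 39.6 to 63.5%.

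Along the kappa locus the 94 kappa genes lie 22.3 to 3170.2 kb from Igkc (chr6:70726435-70726966, plus strand), 36 on its strand and 58 on the opposite strand. Genes on the opposite strand join J by inversion and the others by deletion. Igkv1-110 and Igkv1-117, 2455 and 2605 kb away, held the largest mean shares of the kappa count, and Igkv10-96, at 2094 kb, the next. The 47 genes nearest Igkc, within 1326 kb, held 37.9% ± 5.90 of the kappa count without treatment (SD, n = 8), 47.6% ± 4.74 after ADU-S100, 41.0% ± 4.14 after anti-LTβR and 43.4% ± 7.43 after both. Genes on the opposite strand held 54.8% ± 9.32, 59.5% ± 4.55, 52.9% ± 8.33 and 56.1% ± 10.03 in that order, with combination tumor 8 highest at 77.0%. The groups overlapped in both measures.

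**Figure D5:**
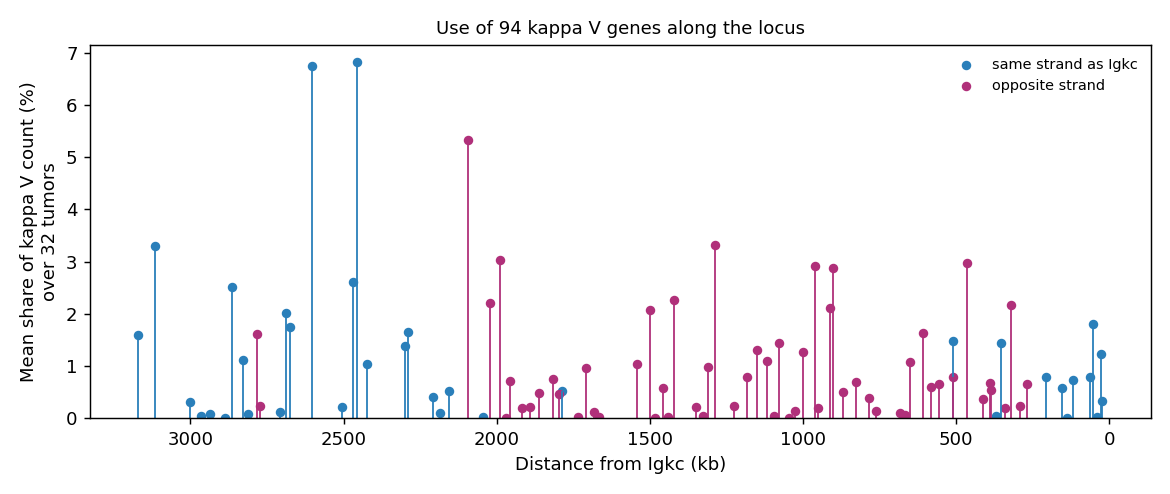
Mean share (%) of the kappa V count over 32 tumors for each of the 94 kappa genes, against distance from Igkc in kb, coloured by strand. The tallest lines are Igkv1-110 and Igkv1-117, at 2455 and 2605 kb, and used genes occur along the whole locus.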

How the data were processed

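Poly(A) RNA-seq of 32 KPC tumors was analysed in the 4 groups of 8 given by the labels. The submitters' processing notes name cutadapt 1.9, FastQC, HISAT2, StringTie, DESeq2, edgeR, Partek, STAR and the build mm39. Which aligner made each table, and whether counting used strand, is not given in the sources used here. The authors deposited a signal, normalized counts per gene, for the 32 tumors, in which V gene values can be fractions of a read. A second deposited signal table of 52 libraries steps by the worth of a read, so reads were recovered from it (whole within 0.1 read). It holds 93 of the 97 members and gave the same leading gene in all 32 tumors. Its libraries of another experiment entered no comparison. The deposited enrichment scores and p-values of Gene Ontology terms were not used. Unused columns of per-sample values numbered 0.

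Pairs of groups, and the interaction in all 32 tumors, were compared with limma 3.58.1 (R 4.3.3) on log2(value + 1), which understates changes of low genes. All genes passing filterByExpr of edgeR 4.0.16 (minimum 10) were tested and adjusted by Benjamini-Hochberg. Calls needed an FDR of 0.05 and a 2-fold change, the interaction the FDR alone. Alternatives were a pseudocount of 0.1, no filter, TMM factors, edgeR and DESeq2 1.42.0 on recovered reads, a fit of all groups, replicate blocks, the FDR alone and leaving out each tumor. Leave-one-out fits of the interaction, and sums over members with no relative at 95% identity, were added after seeing the data. Simulated counts of 15825 genes were modelled on combination and untreated tumors. In them limma found 197 of 200 genes changed by 1.5 in log2, with 1 false call. How many V genes with such a change it would find was not tested. The 71 members tested between these groups had a median log2 difference of 1.56, and 48 of them were not called. Sums and shares were not tested. GRCm38 positions, lengths and V exons came from GENCODE M21, matched by gene identifier with no conversion between builds, with alignments by Biopython 1.88.

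Members and lists were chosen with earlier results of these data known. Named were the 12 members of highest mean share, the lambda genes, any member over 25% of a tumor's V count, and in combination and anti-LTβR against untreated tumors the 5 called members per direction with the smallest adjusted p. Constant genes, the lists and the 5 other genes most like the V sum were named too, and some genes of these lists are not reported here.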

Additional observations from a re-analysis of the deposited data

Results flagged for a closer look

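In each group of 8 tumors the highest or lowest value was set apart when its gap to the next took up more of the range than Dixon's 95% critical value, which chance does in about 1 in 20 groups of normally distributed values. These counts were not transformed and are skewed to high values, so that rate is no measure of chance for them. A tumor was set apart in 30 of 108 groups, always the highest one. The V sum of combination tumor 7 was 68765, against 36819 at most in the other combination tumors. The leading share of anti-LTβR tumor 7 was 27.3%, against 16.5% at most in the others. Anti-LTβR tumor 6 stood apart by its counts of Igkv1-117 (5269.9), Igkv10-96 (2033), Igkv4-59 (1471), Igkv12-46 (2429.8), Igkv14-111 (3027), Iglv3 (291), Igkv6-17 (914) and Igkv6-32 (1988). Untreated tumor 3 stood apart by its counts of Igkv4-59 (2189.6), Igkv9-124 (113), Igkv5-48 (152) and Igkv6-32 (179). Combination tumor 7 stood apart by its counts of Igkv5-43 (3890.3), Igkv6-17 (2967) and Igkv4-53 (3968). ADU-S100 tumor 8 stood apart by its counts of Igkv9-124 (83.8) and Igkv6-17 (161). Anti-LTβR tumor 3 stood apart by its counts of Igkv9-124 (1569) and Igkv4-57 (738). Combination tumor 5 stood apart by its counts of Igkv19-93 (1244) and Igkv9-124 (1078). Single genes stood apart in untreated tumor 6 by Igkv17-127 (728), ADU-S100 tumor 1 by Iglv3 (36.3), ADU-S100 tumor 5 by Igkv4-57 (509), anti-LTβR tumor 5 by Igkv1-135 (3348), anti-LTβR tumor 7 by Iglv2 (2146), combination tumor 3 by Igkv4-57 (1101) and combination tumor 6 by Igkv6-23 (4222).

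Igkv2-137 was set apart because the effect of ADU-S100 differed with and without anti-LTβR, by 2.77 in log2 (adjusted p = 0.0236, limma). Outside the 97 members, 5 Igkv or Iglv rows of another biotype summed to 14.04 ± 25.9 in anti-LTβR and 8.84 ± 6.23 in combination tumors, above the untreated mean of 2.66 ± 3.43 (SD, n = 8) with overlap. The medians were 3.35, 9.72 and 1.06, and anti-LTβR tumor 6 alone had 77.0, without which that group's mean was 5.05. Without untreated tumor 3 (10.2) the untreated mean was 1.59. In another experiment of the series, 5 libraries are described as combination, although the treatment label reads the same for all libraries of that experiment. Their V sums had a median of 36205 (11098 to 58183), and 4 of them exceeded the untreated tumors of the present experiment in the same table, which reached 19356. The lowest came from a library of 8716257 reads, against 18028314 or more in the other 4. The experiments differ, so treatment and experiment cannot be told apart in this comparison.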

How the results depend on the processing

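Members called with anti-LTβR against untreated tumors numbered 8, and 20 by DESeq2, 14 in the fit of all groups, 5 with the replicate block and 4 to 14 without single tumors. For combination against anti-LTβR the count of 2 became 7 by DESeq2 (2 lower), 1 lower without the filter, 5 with the block (2 lower) and 0 to 3 without single tumors. The interaction count of 1 became 9 by DESeq2, 4 by edgeR and 2 without the filter (1 negative in each), 2 with a pseudocount of 0.1 and 2 with the block. Without single tumors it was 1 to 2, an alternative chosen after seeing the data, and 2 without ADU-S100 tumor 7 or 8, anti-LTβR tumor 6, combination tumor 4 or untreated tumor 4 or 7. Without single tumors combination against untreated had 17 to 31 calls (all tumors 23) and combination against ADU-S100 32 to 47 (all tumors 40), and ADU-S100 against untreated had 0 in every fit run. With the block Iglc1 (1.54, adjusted p = 0.103) and Iglc3 (2.04, adjusted p = 0.0764) lost their limma calls with anti-LTβR. Same-numbered tumors deviated together (r over 0.1) in 2 to 5 of 8 pairs per comparison. With so few pairs this does not settle whether the numbers pair the tumors, and the block is given as an alternative only. Igkv4-59 with anti-LTβR, 0.22 in log2 and not called, was -0.27 by edgeR, -0.26 by DESeq2 and -0.14 to 0.70 without single tumors. The cause of these shifts was not tested. Of the values of named members under alternatives, 878 kept direction and side of the threshold, 34 gained the call, 43 lost it and 5 changed sign. Ratios of summed counts moved by less than 1 SD in all 105 values, the SD being that of the first group's tumors over the second group's mean. That bound is wide, so staying within it says little about stability. Without single tumors the ratio was 2.82 to 4.35 for combination against untreated and 1.05 to 1.67 for combination against anti-LTβR. Left to members without a relative at 95% identity, a choice made after seeing the data, the combination sum was 2.91 times the untreated sum. Reads shared between near-identical V genes, the lack of read counts for low members and the unequal tumors of each group limit what these data resolve.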

Other observations

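In 15 libraries of another experiment whose treatment the labels do not settle, the V sum was 1141 at the lowest, 8849 at the median and 68307 at the highest, and the leading gene held 6.76 to 20.4% of it.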
